A study of Mus musculus with 4 samples.

Results

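Cd38, Entpd1, Nt5e, Adora2a, Ada and Bst1 encode enzymes and a receptor that handle ATP, NAD and adenosine. They were listed by name as genes of this pathway, with earlier results of these data known, and are 6 of the 31253 genes listed for each of 4 single-cell RNA sequencing libraries of CD8+ T cells from mouse tumours. Each gene was followed as its level and as the share of cell barcodes holding it. A barcode is the sequence that marks a droplet, in most cases with 1 cell in it. The libraries were compared only within their pair, KO against WT and Aged against Young.

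All 4 libraries were prepared from tumours of MB49, a mouse bladder carcinoma line, by sorting CD45+ CD8+ T cells, and the cells of 3 mice were pooled for each library. For WT and KO the tumours were subcutaneous, in mice of strain C57BL/6Slac aged 10 to 12 weeks. The KO mice, called BFAR-CD8-KO, lack Bfar in their CD8+ T cells; the Cre driver and the deleted exons were not given in the sources used here. For Young and Aged the hosts were Rag1-/- mice aged 8 to 10 weeks, which cannot form lymphocytes of the T or B lineage but keep macrophages, dendritic cells and natural killer cells. Their strain is written B6.129S7-Rag1tm0Mom/J for Young and B6.129S7-Rag1tm1Mom/J for Aged. On the day of tumour inoculation these hosts received CD8+ T cells by vein, from donors aged 8 weeks for Young and 18 months for Aged. The T cells of Young and Aged are therefore those that grew out after transfer into a host without T and B lymphocytes of its own. With 1 library per group there is no spread between replicates, so no test was made and no p-value is given. The intervals printed are 95% counting intervals: they cover the error of counting molecules and not the variation between mice.

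Entpd1 encodes CD39, which cuts ATP and ADP to AMP, and Nt5e encodes CD73, which cuts AMP to adenosine. Adora2a encodes a receptor through which adenosine raises cyclic AMP and restrains T cells. Ada encodes adenosine deaminase, which removes adenosine by turning it into inosine. Cd38 and Bst1 (CD157) encode related enzymes that consume NAD, and their genes lie side by side. In tumour-infiltrating CD8+ T cells, CD39 and CD38 are commonly used as surface markers of chronically stimulated, exhausted cells, whereas CD73 is known from naive and memory cells. Pdcd1 (PD-1) and Havcr2 (TIM-3) encode inhibitory receptors of stimulated and exhausted T cells, and Ifit1 and Ifit3 are induced by type I interferon. Each of these served to split the barcodes of a library.

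In the mouse genome build GRCm38, the GENCODE annotation places Cd38 on chromosome 5 at 43868553 to 43912375 and Bst1 24567 bases upstream of it, at 43818885 to 43843986, both on the plus strand. Entpd1 lies on chromosome 19 at 40612366 to 40741602, Nt5e on chromosome 9 at 88327197 to 88372092 and Adora2a on chromosome 10 at 75316877 to 75334784, all on the plus strand, and Ada on chromosome 2 at 163726584 to 163750239 on the minus strand. All are protein coding. An antisense gene model lies within Cd38, and the start of Bst1 overlaps Fbxl5 on the other strand. How reads of overlapping genes were assigned was not given in the sources used here.

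RefSeq promoter windows of 300 bases (build GRCm38.p6) were found for 4 of the 6 genes, with a pair of start sites for Entpd1. Those of Cd38 and Nt5e lie within the GENCODE genes given above, downstream of their annotated starts. The bases before those GENCODE starts lie outside these windows. The windows of Cd38, Entpd1 and Nt5e are shown because, among the genes that counted as measured, their levels moved most with the Pdcd1 and Havcr2 splits in these libraries. All are on the plus strand, and capitals mark GCGTG, a core of the hypoxia response element, where it occurs.
Cd38, chr5:43868559-43868858: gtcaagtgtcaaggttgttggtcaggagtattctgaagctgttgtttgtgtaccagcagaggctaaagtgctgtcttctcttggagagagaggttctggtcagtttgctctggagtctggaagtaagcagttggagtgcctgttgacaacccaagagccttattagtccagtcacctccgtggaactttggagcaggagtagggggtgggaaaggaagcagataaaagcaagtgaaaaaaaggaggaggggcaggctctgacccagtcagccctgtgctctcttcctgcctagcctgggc
Entpd1, first start, chr19:40612116-40612415: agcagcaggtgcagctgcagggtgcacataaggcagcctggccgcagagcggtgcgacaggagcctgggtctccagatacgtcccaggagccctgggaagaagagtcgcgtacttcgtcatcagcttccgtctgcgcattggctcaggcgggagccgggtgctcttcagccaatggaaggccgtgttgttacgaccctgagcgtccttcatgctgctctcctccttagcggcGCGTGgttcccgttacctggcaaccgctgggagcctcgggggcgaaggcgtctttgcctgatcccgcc
Entpd1, second start, chr19:40659520-40659819: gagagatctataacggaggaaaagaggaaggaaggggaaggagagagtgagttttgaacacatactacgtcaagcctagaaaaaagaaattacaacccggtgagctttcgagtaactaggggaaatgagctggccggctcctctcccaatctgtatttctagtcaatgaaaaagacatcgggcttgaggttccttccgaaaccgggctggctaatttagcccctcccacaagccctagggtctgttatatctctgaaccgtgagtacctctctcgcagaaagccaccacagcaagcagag
Nt5e, chr9:88327359-88327658: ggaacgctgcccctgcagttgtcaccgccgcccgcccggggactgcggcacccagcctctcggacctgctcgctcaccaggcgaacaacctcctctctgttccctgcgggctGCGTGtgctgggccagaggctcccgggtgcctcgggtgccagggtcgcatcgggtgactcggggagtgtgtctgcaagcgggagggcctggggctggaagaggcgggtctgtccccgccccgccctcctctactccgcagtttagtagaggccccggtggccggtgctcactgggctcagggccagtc

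These windows and that of Ada were searched on both strands for ACGTG and GCGTG (the hypoxia response core), GAAANNGAAA (an interferon response element), CTTTGAA and CTTTGAT (sites of the TCF and LEF factors, to which Tcf7 belongs) and TGACGTCA (the cyclic AMP response element). GCGTG occurred once in the first Entpd1 window, starting at base -18 from the start site, once in the Nt5e window at -138, and 2 times in the Ada window at 2 and 42. This motif is common, with a match in 32.4% of all 32851 RefSeq promoter windows of the mouse. None of the 5 other letter strings occurred in the windows of the 4 genes. They were found in 19.6% (ACGTG), 3.44% (GAAANNGAAA), 5.14% (CTTTGAA), 3.73% (CTTTGAT) and 1.79% (TGACGTCA) of all windows. Ifit1 and Ifit3, which served as the interferon split, each held 2 matches of GAAANNGAAA.

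The files held 8665 to 11060 barcodes and 68017515 to 85401443 unique molecular identifiers (UMIs, 1 per counted RNA molecule) per library. After filters on depth and mitochondrial RNA, 8966 WT, 8153 KO, 9803 Young and 8252 Aged barcodes carried at least 1 UMI of Cd3d, Cd3e or Cd3g and at least 1 of Cd8a or Cd8b1, and these are called CD8 barcodes here. Their median depths were 6341, 6870, 4510 and 5768 UMIs. All 10 markers fixed for CD8 T cells were present at 124.7 counts per 1000000 UMIs (CPM) or more in every library. Young and Aged shared 145 barcode sequences and WT and KO shared 20. Without the shared ones all 12 ratios of the 6 genes within the 2 pairs stayed inside the intervals given here. Bfar, the targeted gene, was at 32.1 CPM in WT and 22.4 in KO, a ratio of 0.697 (0.654 to 0.743). Its RNA was lower in the library labelled KO but still present, and since the deleted exons are not known here, a tag near the end of the transcript cannot show how complete the deletion was.

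Between WT and KO, Cd38 differed most among the 4 genes measured well enough to count. It stood at 26.4 CPM (25.3 to 27.6) in WT and 15.9 (15.0 to 16.9) in KO, so the KO library held 0.604 times the WT level (0.561 to 0.650). Its share of CD8 barcodes went the same way, from 16.6% in WT to 11.1% in KO. When every barcode was thinned to 2000 UMIs, so that depth was equal, the shares were 5.42% (4.96 to 5.92) and 3.18% (2.81 to 3.59). Entpd1 was at 32.5 CPM in WT and 27.0 in KO, a ratio of 0.831 (0.783 to 0.883), with thinned shares of 6.18% and 5.23%. Nt5e was at 88.4 CPM in WT and 82.7 in KO, a ratio of 0.935 (0.903 to 0.969), and 39.6% and 36.9% of barcodes held it. Adora2a was at 24.0 and 24.5 CPM, a ratio of 1.02 (0.956 to 1.09). To count as measured, a gene needed 20 UMIs or more over the pair and 10 CPM or more in 1 library, and a difference of 1.5 times was the size used for counting. By this rule 1 of the 4 measured genes, Cd38, was lower in KO and 0 were higher, where 3.09% of all 7415 measured genes were that much lower and 0.607% that much higher.

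Between Young and Aged the ATP-cutting enzyme, the NAD-consuming enzyme and the receptor were all higher in Aged, and the AMP-cutting enzyme was lower. Entpd1 stood at 45.8 CPM (44.1 to 47.5) in Young and 74.5 (72.4 to 76.7) in Aged, a ratio of 1.63 (1.55 to 1.71). Barcodes with an Entpd1 UMI made up 19.2% of Young and 31.7% of Aged, and 7.94% (7.40 to 8.51) against 12.1% (11.4 to 12.8) at 2000 UMIs. Adora2a was at 40.4 CPM in Young and 56.5 in Aged, 1.40 times higher (1.33 to 1.47), with thinned shares of 8.03% and 10.3%. Cd38 was at 23.4 CPM in Young and 31.5 in Aged, 1.35 times higher (1.26 to 1.44), with thinned shares of 4.65% and 5.76%. Nt5e was at 42.6 CPM in Young and 33.2 in Aged, a ratio of 0.779 (0.735 to 0.825), and its thinned share went from 8.77% to 7.22%. Of these 4 measured genes 1, Entpd1, passed 1.5 times higher and 0 passed 1.5 times lower, against 2.62% and 3.83% of all 7938 measured genes. The median log2 ratio of all measured genes was 0.0828 in this pair and -0.0476 for KO and WT. The CD8 barcodes of Aged also held more Pdcd1, 483 CPM against 237 in Young, and more Havcr2, 121 against 62.9.

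**Figure D1:**
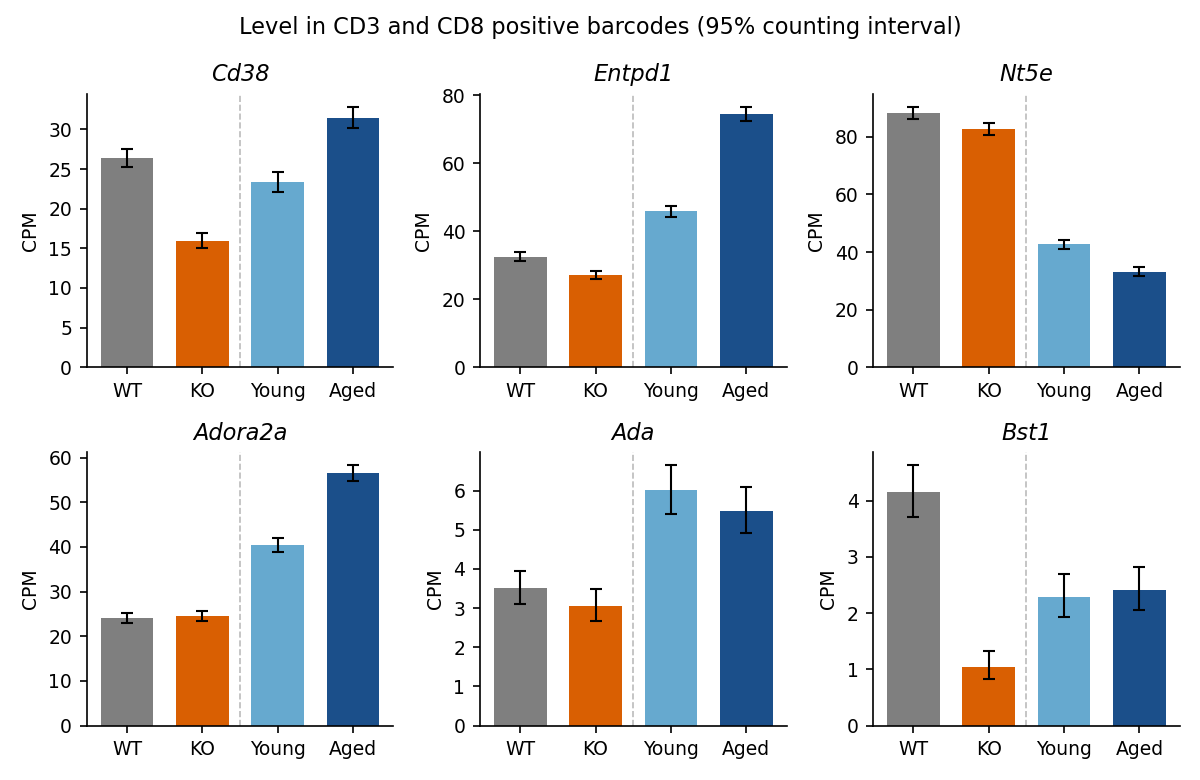
Level of the 6 genes in counts per 1000000 UMIs (CPM, vertical axis, a separate scale for each gene) in the CD8 barcodes of each library. Filled bars are the libraries, and the black lines on them are 95% counting intervals. Cd38 is lowest in KO at 15.9 CPM, and Entpd1 is highest in Aged at 74.5 CPM; the dashed line separates the pairs, which were made with different kits.

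Ada and Bst1 were near the limit of detection and did not count as measured in either pair. Ada had 267 UMIs in WT (3.504 CPM), 213 in KO (3.06), 365 in Young (6.00) and 357 in Aged (5.48). Its ratios were 0.873 (0.726 to 1.05) for KO and WT and 0.913 (0.787 to 1.06) for Aged and Young, so neither difference was detectable at this depth. Bst1 had 316 UMIs in WT (4.15 CPM), 73 in KO (1.05), 139 in Young (2.29) and 157 in Aged (2.41), in at most 1.44% of the barcodes of a library.

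In WT, KO and Young, but not in Aged, most Bst1 UMIs sat in barcodes that also carried RNA of other cells. CD8 barcodes with at least 2 markers of another cell type were 6.63% of WT, 3.97% of KO, 10.9% of Young and 7.02% of Aged, with 17.8%, 9.92%, 22.1% and 12.2% of all UMIs, and they held 88.0%, 80.8%, 79.9% and 39.5% of the Bst1 UMIs. For KO and WT the Bst1 ratio was 0.253 (0.193 to 0.327) over all CD8 barcodes and 0.368 without these, where the levels were 0.607 CPM in WT and 0.223 in KO. The summed level of the 8 tumour or epithelial markers in CD8 barcodes was 384.5 CPM in WT and 148.9 in KO, and that of the 8 fibroblast markers 282 and 46.0, with every marker of both lists above 0 in both libraries. For Aged and Young the ratio was 1.05 (0.834 to 1.33) over all CD8 barcodes and 2.81 without the marked ones, from 0.591 CPM in Young and 1.66 in Aged.

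The same marker counts were set beside the other genes. Marked barcodes held 28.6% of the Entpd1 UMIs of Young, above their 22.1% of all UMIs, and 12.8% of those of Aged, close to their 12.2%. Without them Entpd1 was at 42.0 CPM in Young and 74.0 in Aged, a ratio of 1.76. In the CD8 barcodes of Young and Aged the 8 dendritic cell markers summed to 1356 and 321 CPM and the 11 macrophage markers to 138.8 and 77.0. All of them were above 0 in both libraries, except Cd209a, which was at 0 in Aged. In CD8 barcodes a Foxp3 UMI, the mark of regulatory T cells, was present in 0.881% of WT, 1.51% of KO, 0.316% of Young and 0.254% of Aged, and a Cd4 UMI in 0.0892%, 0.405%, 0.255% and 2.90%. Without barcodes holding either, the Aged to Young ratio of Entpd1 was 1.62 and the KO to WT ratio of Cd38 was 0.598.

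Barcodes with no Cd3 UMI and at least 3 markers of another type give the levels outside T cells and a background for the shares; such a group is a range of barcodes and not a proven cell type. Entpd1 was absent from the 82 fibroblast-marked barcodes of Young (0 UMIs at a median depth of 23556.5), which allows a share of up to 3.66%, and from the 63 of Aged (median 22973), up to 4.76%. Against this, 19.2% and 31.7% of the CD8 barcodes held Entpd1 at far lower depth. The dendritic-cell-marked barcodes carried much of it, 114 CPM (94.7 to 136) in 66 Young and 98.9 (77.1 to 125) in 46 Aged barcodes. In the macrophage-marked barcodes Entpd1 was at 115 CPM (61.4 to 197) in 16 of Young and 201 (113 to 332) in 13 of Aged. The 71 tumour-marked barcodes of WT held 1 Entpd1 UMI at a median depth of 38915.

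Nt5e was present in the fibroblast-marked barcodes, at 54.9 CPM (40.9 to 72.2) in 32 of WT, 28.0 (20.9 to 36.6) in Young and 33.1 (24.9 to 43.2) in Aged, and at 106.8 (71.5 to 153) in 8 of KO, above the 82.7 CPM of the KO CD8 barcodes. It was in 2 of 42 mast-cell-marked barcodes of WT, 4.76% at a median depth of 14036, where 39.6% of the WT CD8 barcodes held it. In Aged 0 of 46 dendritic-cell-marked barcodes held it, which allows up to 6.52%, against 19.1% of CD8 barcodes. Cd38 was at 2.11 CPM (0.575 to 5.40) in the fibroblast-marked barcodes of Young, below the 23.4 CPM of its CD8 barcodes. In the tumour-marked barcodes Cd38 was at 13.5 CPM (9.57 to 18.4) in WT, 13.2 (5.29 to 27.1) in KO, 28.9 (18.5 to 43.0) in Young and 23.7 (14.8 to 35.8) in Aged. In KO, Young and Aged the interval included the CD8 level. Adora2a in tumour-marked barcodes was at 1.73 CPM (0.560 to 4.03) in WT and 2.41 (0.292 to 8.71) in Young, against 24.0 and 40.4 CPM in CD8 barcodes. In the 13 macrophage-marked barcodes of Aged it was at 147 CPM (73.6 to 264), above the 56.5 of CD8 barcodes. In the tumour-marked barcodes Bst1 was well above its CD8 level, at 54.2 CPM (46.0 to 63.4) in 71 of WT, 67.6 (47.4 to 93.7) in 11 of KO, 73.5 (56.2 to 94.5) in 47 of Young and 38.7 (27.1 to 53.6) in 29 of Aged. The 13 macrophage-marked barcodes of Aged held 6 Bst1 UMIs, or 80.5 CPM (29.5 to 175). Ada in the fibroblast-marked barcodes was at 14.8 CPM (9.82 to 21.3) in Young and 15.9 (10.4 to 23.3) in Aged, above its level in CD8 barcodes.

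CD8 barcodes with a Pdcd1 UMI held more Entpd1 and Cd38 and less Nt5e than those without, in each of the 4 libraries. Pdcd1 was found in 63.3% of WT, 63.9% of KO, 42.8% of Young and 62.1% of Aged barcodes. Entpd1 was at 40.1 CPM with and 16.5 without Pdcd1 in WT, a ratio of 2.43 (2.18 to 2.71). In KO the Entpd1 ratio was 1.75 (1.56 to 1.96), in Young 1.52 (1.40 to 1.64) and in Aged 2.25 (2.08 to 2.44). Cd38 was 1.97, 1.74, 1.29 and 2.00 times as high with Pdcd1 as without in WT, KO, Young and Aged. Nt5e went the other way, with ratios of 0.726 (0.692 to 0.763), 0.775 (0.734 to 0.818), 0.613 (0.566 to 0.663) and 0.442 (0.406 to 0.482). Its level without Pdcd1 was 109 CPM in WT and 55.5 in Aged, and with Pdcd1 78.8 and 24.5. Adora2a was 1.12 to 1.38 times as high with Pdcd1.

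Counted at 1.5 times, Cd38 and Entpd1 were higher with Pdcd1 in WT, 2 of 4 measured genes against 4.97% of all measured genes, and 0 were lower (1.94%). The same 2 genes passed in KO (4.34% of all genes higher), again with 0 lower (1.34%). In Young 1 of the 4, Entpd1, was higher (5.65%) and 1, Nt5e, lower (1.65%). In Aged Cd38 and Entpd1 were higher (8.4%) and Nt5e lower (3.59%). Barcodes with Pdcd1 were deeper, with medians of 6664 against 5854 UMIs in WT, 7303 against 6238 in KO, 5005 against 4301 in Young and 6596 against 4980 in Aged. Every barcode was then thinned to 2000 UMIs and the split was read again on the thinned counts. Barcodes with Pdcd1 now made up 37.6% of WT, 38.5% of KO, 27.5% of Young and 41.9% of Aged. The split thus changed along with the depth. The Entpd1 ratios were 1.87, 1.23, 1.44 and 1.73 and those of Cd38 1.48, 1.54, 1.20 and 1.68, all still above 1. Those of Nt5e were 0.851, 0.915, 0.694 and 0.455, all below 1. At this depth the KO interval of Nt5e, 0.819 to 1.02, and the Young interval of Cd38, 0.971 to 1.47, included 1.

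The split by Havcr2 gave a similar order for Entpd1 and Nt5e and set Cd38 of Young apart. Havcr2 was found in 25.1% of WT, 26.9% of KO, 17.7% of Young and 35.3% of Aged barcodes. Entpd1 was at 54.8 CPM with and 21.3 without Havcr2 in WT (2.58 times, 2.38 to 2.79), 41.5 and 19.2 in KO (2.17 times), 66.2 and 37.0 in Young (1.79 times) and 102 and 46.6 in Aged (2.20 times). Nt5e was lower with Havcr2 at 0.610 times (0.576 to 0.645) in WT, 0.737 in KO, 0.618 in Young and 0.462 in Aged. Cd38 was 1.83 times (1.67 to 2.00) as high with Havcr2 in WT, 1.54 in KO and 1.41 in Aged, but 0.998 (0.889 to 1.12) in Young, where it was at 23.3 CPM with and 23.4 without. Adora2a lay between 0.939 times in Young and 1.24 in Aged. The splits were not recomputed without CD8 barcodes carrying markers of another cell type. In Young those held 28.6% of the Entpd1, 22.3% of the Cd38 and 12.8% of the Nt5e UMIs, and 22.1% of all UMIs. Bst1 of Young had 93 UMIs with Havcr2 and 46 without. The part of other cells in the Havcr2 ratios was not tested.

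At 1.5 times, Cd38 and Entpd1 were higher and Nt5e lower with Havcr2 in WT, where 6.71% of all measured genes were higher and 1.91% lower. In KO Cd38 and Entpd1 were higher and 0 of the 4 lower (6.07% and 1.39%). In Young and in Aged Entpd1 was higher and Nt5e lower; the shares of all measured genes were 8.52% and 3.76% in Young and 8.47% and 3.29% in Aged. Depth differed more across this split than for Pdcd1, with medians of 7241 against 4284 UMIs in Young and 8198 against 5134 in Aged. After thinning, this split too was read on the thinned counts. Barcodes with Havcr2 then made up 9.71% of WT, 10.1% of KO, 7.64% of Young and 16.0% of Aged. The Entpd1 ratios were 2.26, 2.00, 1.30 and 1.81 in WT, KO, Young and Aged, and Nt5e ratios 0.629, 0.835, 0.538 and 0.682. The KO interval of Nt5e (0.686 to 1.01) included 1. The Cd38 ratios were 1.85, 1.43, 0.906 and 1.47, so in KO Cd38 no longer reached 1.5 times and its interval (0.982 to 2.03) included 1.

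**Figure D2:**
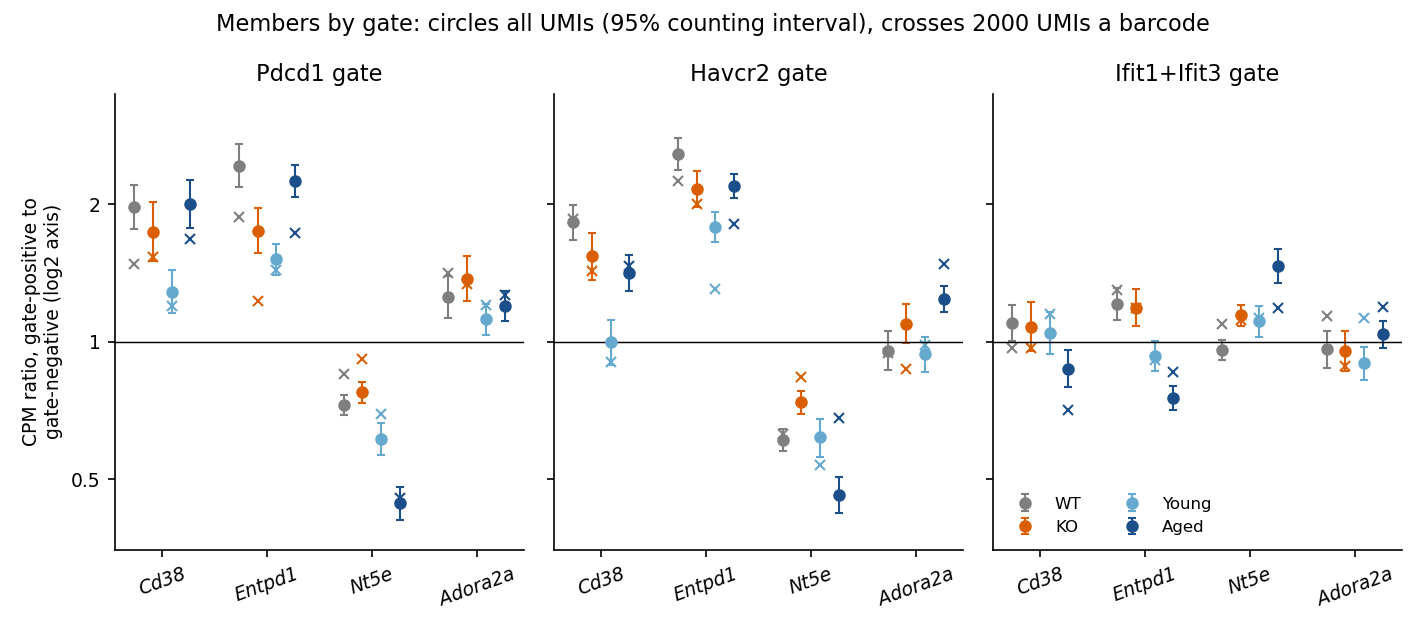
Ratio of the CPM in barcodes with a UMI of the splitting gene to that in barcodes without (vertical log2 axis) for 4 genes in each library, split by Pdcd1, Havcr2 or Ifit1 and Ifit3 together; circles use all UMIs with 95% counting intervals, crosses barcodes thinned to 2000 UMIs. For Pdcd1 and Havcr2 the circles of Entpd1 lie above 1 in all 4 libraries, from 1.52 to 2.58, and those of Nt5e below 1, from 0.442 to 0.775. The circles of the interferon split stay within 0.754 to 1.47. Some crosses, with the split read on the thinned counts, lie outside these ranges. Examples are Entpd1 at 1.23 and Nt5e at 0.915 for Pdcd1 in KO, and Cd38 at 0.709 for the interferon split in Aged.

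With all UMIs, the interferon split gave ratios of 0.754 to 1.47 for the 4 measured genes. Barcodes with a UMI of Ifit1 or Ifit3 made up 38.4% of WT, 34.4% of KO, 37.6% of Young and 40.2% of Aged. None of the 4 passed 1.5 times in either direction in any library, where the shares of all measured genes were 6.82% higher and 0.422% lower in WT, 3.81% and 0.428% in KO, 6.03% and 1.08% in Young and 3.68% and 1.76% in Aged. At such shares few or none of 4 genes would be counted, so this count says nothing particular of them. The ratios farthest from 1 were those of Aged, where Nt5e was 1.47 times (1.35 to 1.60) as high with Ifit1 or Ifit3 and Entpd1 0.754 times (0.708 to 0.801). In WT Entpd1 was 1.21 times (1.12 to 1.31) as high and in KO 1.19 (1.08 to 1.30), whereas Nt5e was at 0.959 (0.913 to 1.01) and 1.14 (1.08 to 1.21). Cd38, whose gene is known to respond to interferon, had ratios of 1.10 (1.01 to 1.20) in WT, 1.08 (0.955 to 1.22) in KO, 1.05 (0.940 to 1.17) in Young and 0.873 (0.796 to 0.958) in Aged. After thinning the Cd38 ratio was 0.968 (0.782 to 1.19) in WT and 0.709 (0.557 to 0.893) in Aged. The Adora2a ratio of Young went from 0.897 (0.826 to 0.974) to 1.13 (0.957 to 1.32).

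Bst1 and Ada stayed below 10 CPM on every side of the splits and did not count as measured there. Bst1 was 1.70 times (1.29 to 2.25) as high with Pdcd1 in WT, 1.85 in KO, 2.18 in Young and 3.00 in Aged. With Havcr2 it was at 1.09 times (0.859 to 1.38) in WT, 4.27 (2.55 to 7.40) in KO, 4.71 (3.27 to 6.86) in Young and 2.47 (1.74 to 3.58) in Aged. With Ifit1 or Ifit3 it was 2.65 times (2.09 to 3.37) as high in WT, 2.405 in KO and 2.15 in Young, but 0.804 (0.563 to 1.13) in Aged. These ratios came from 73 to 316 UMIs per library, and barcodes with markers of other cells held most of these except in Aged, as given above. At 2000 UMIs 8 to 24 Bst1 UMIs were left per library, and the Pdcd1 ratio fell below 1 in WT (0.765) and KO (0.228) with intervals that included 1. Ada had ratios of 0.766 to 1.20 over the 12 splits, and 11 of 12 intervals included 1; the exception was WT by Pdcd1, at 0.766 (0.595 to 0.991).

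Splitting by Pdcd1 and Havcr2 together gave the lowest Entpd1 and the highest Nt5e level with neither and the reverse with both, in each library. In WT Entpd1 was at 13.3 CPM (11.8 to 15.0) in barcodes with neither, 26.8 with Pdcd1 alone, 34.7 with Havcr2 alone and 58.1 (54.9 to 61.4) with both. In Aged it was at 34.1, 56.2, 56.9 and 109 CPM, with overlapping intervals for the middle pair. In KO Entpd1 was at 14.9, 21.8, 30.0 and 43.8 CPM and in Young at 32.2, 43.4, 55.2 and 70.2, in the same order. Nt5e was at 114 CPM (110 to 119) with neither, 92.9 with Pdcd1 alone, 75.9 with Havcr2 alone and 59.7 (56.5 to 63.1) with both in WT, and at 103, 83.7, 76.4 and 65.3 in KO. In Young it was at 55.5, 38.5, 43.0 and 25.0 and in Aged at 58.8, 35.2, 44.0 and 17.7, so the middle pair was in the other order there. The Nt5e intervals of the middle pair overlapped in KO, Young and Aged. Cd38 was higher with Pdcd1 alone than with Havcr2 alone in all 4 libraries, with overlapping intervals in WT and KO. It was at 14.7, 24.8, 22.8 and 40.3 CPM in WT, 10.2, 15.4, 11.8 and 22.4 in KO and 17.2, 32.9, 22.1 and 39.0 in Aged. In these 3 it was lowest with neither and highest with both, but in Young it was at 21.0 with neither, 26.5 with Pdcd1 alone, 16.7 with Havcr2 alone and 25.7 with both. Adora2a was at 20.4, 27.1, 20.8 and 23.7 CPM in WT, 18.9, 26.7, 21.6 and 26.9 in KO, 38.9, 44.1, 33.7 and 40.4 in Young and 46.1, 53.8, 60.8 and 62.7 in Aged, with no order shared by the libraries. Barcodes with both were the deepest in each library, at a median of 8412, 9219, 8914 and 9396 UMIs in WT, KO, Young and Aged, against 5784, 6133, 4189 and 4864 with neither.

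**Figure D3:**
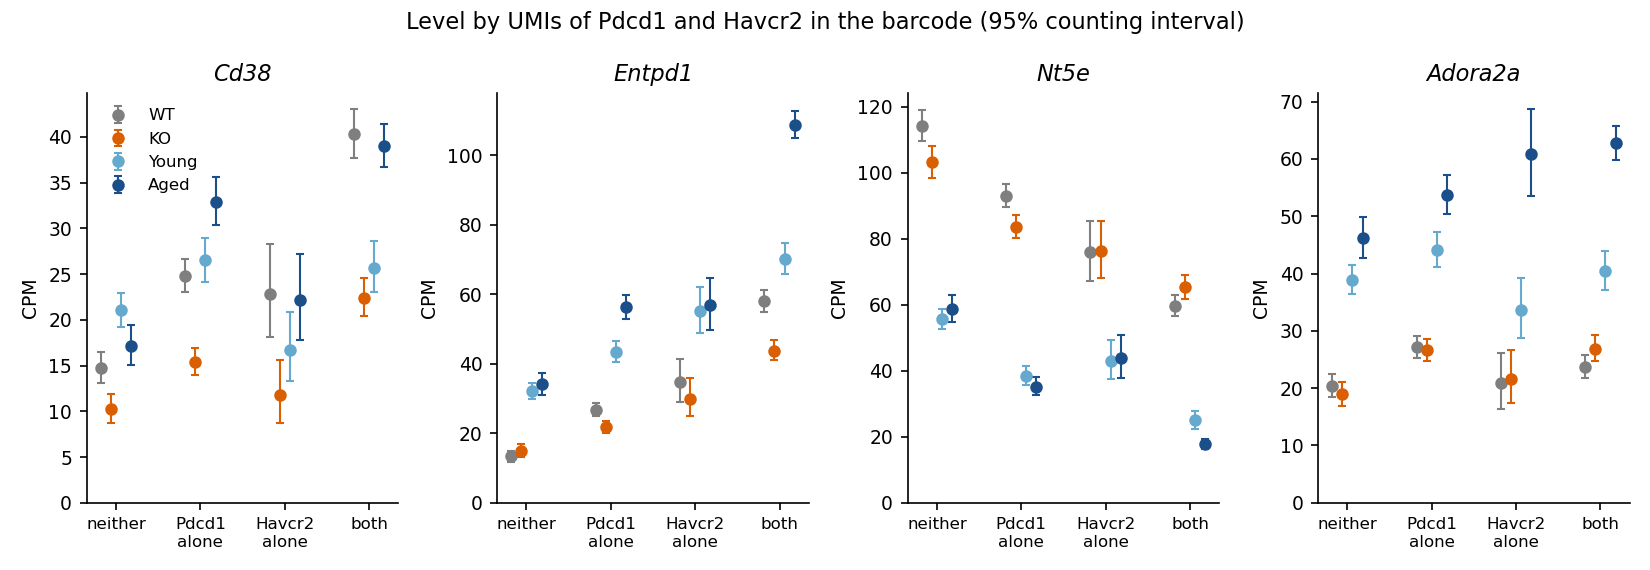
Level in CPM (vertical axis, a separate scale for each gene) of 4 genes in barcodes with neither, 1 or both of Pdcd1 and Havcr2, with 95% counting intervals, 1 colour per library. Entpd1 runs up to 109 CPM in Aged barcodes with both, and Nt5e runs down from 114 to 59.7 CPM in WT and from 58.8 to 17.7 CPM in Aged.

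Each pair was also compared within the splits. Young and Aged differed in how many barcodes held Pdcd1 (42.8% and 62.1%) and Havcr2 (17.7% and 35.3%). WT and KO differed little, at 63.3% and 63.9% for Pdcd1 and 25.1% and 26.9% for Havcr2. For Cd38 the KO library was below WT on both sides of all 3 splits, with ratios from 0.545 (0.489 to 0.608) in Havcr2-positive to 0.661 (0.559 to 0.781) in Pdcd1-negative barcodes. Entpd1 was at 0.776 times (0.725 to 0.829) the WT level in KO with Pdcd1 and at 1.08 (0.934 to 1.24) without, and at 0.757 times with and 0.900 times without Havcr2. Nt5e was at 1.08 times (1.01 to 1.16) the WT level with Havcr2 and 0.896 (0.860 to 0.934) without. For Adora2a the ratios lay between 0.950 and 1.12 on the 6 sides, and 6 of 6 intervals included 1.

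For Entpd1, Cd38 and Nt5e the ratio of Aged to Young was farther from 1 in barcodes with Pdcd1 than in those without. The difference between the sides was not tested. Barcodes with Pdcd1 were not matched between the libraries. They held a mean of 6.14 Pdcd1 UMIs in Aged and 3.43 in Young, at median depths of 6596.5 and 5005 UMIs. The part of this in the ratios was not tested. With Pdcd1, Entpd1 was 1.61 times (1.53 to 1.71) as high in Aged, Cd38 1.40 times (1.29 to 1.52) and Nt5e 0.749 times (0.688 to 0.815). Without Pdcd1 the intervals of all 3 included 1, at 1.09 (0.988 to 1.20) for Entpd1, 0.901 (0.785 to 1.03) for Cd38 and 1.04 (0.958 to 1.12) for Nt5e. Adora2a was different in that it was higher in Aged on both sides, 1.39 times (1.30 to 1.49) with and 1.30 times (1.19 to 1.42) without Pdcd1. By Havcr2, Entpd1 was 1.55 times as high in Aged with and 1.26 times without, Cd38 1.58 and 1.12 times, Nt5e 0.706 and 0.944 times and Adora2a 1.62 and 1.23 times. In barcodes with neither receptor Cd38 was lower in Aged, 17.2 against 21.0 CPM (0.817 times, 0.698 to 0.954), and in those with both it was higher, 39.0 against 25.7 (1.52 times, 1.34 to 1.72). When the 8 combinations of the 3 splits were given equal weight in both libraries, the Aged to Young ratios were 1.26 for Entpd1, 1.22 for Cd38, 0.972 for Nt5e and 1.45 for Adora2a. The KO to WT ratio of Cd38 was then 0.577.

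**Figure D4:**
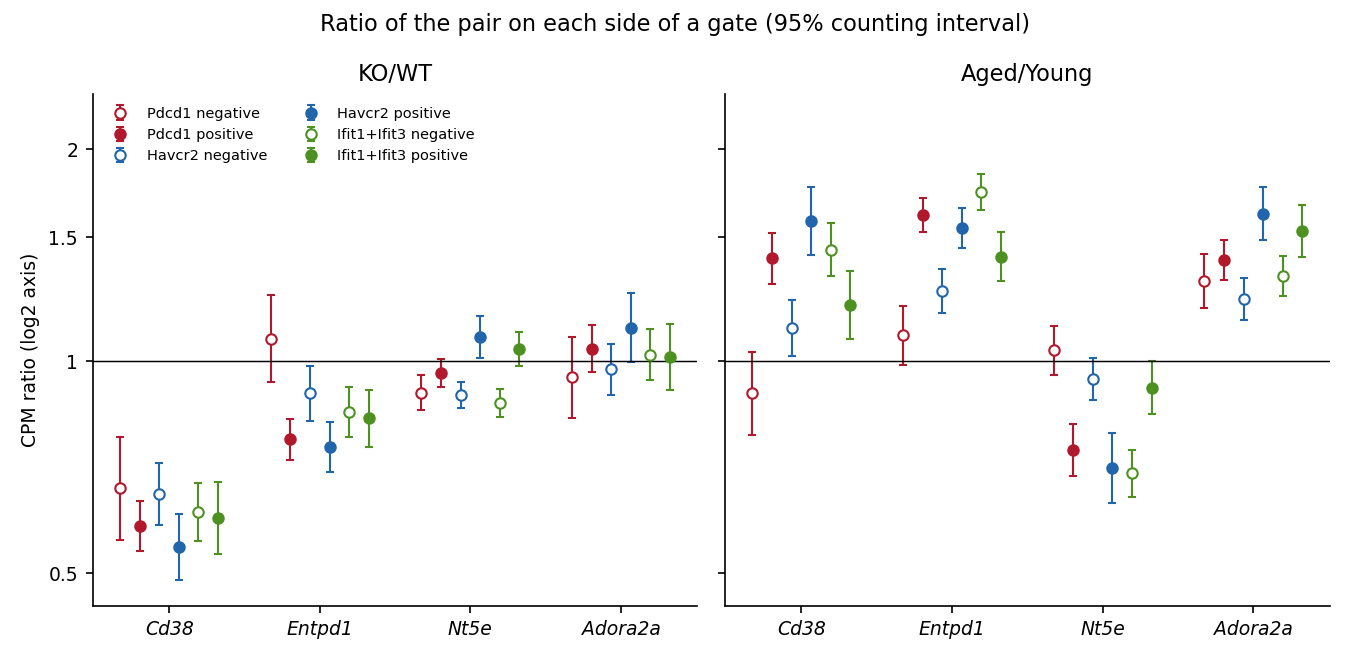
Ratio of the CPM in KO to WT and in Aged to Young (vertical log2 axis) for 4 genes on the positive (filled) and negative (open) side of each split, with 95% counting intervals. Cd38 lies below 1 in KO on all 6 sides, 0.545 to 0.661, and Entpd1 in Aged lies at 1.61 with Pdcd1 and 1.09 without.

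Barcodes with Tcf7 held less Entpd1 and Cd38 and more Nt5e than those without, in each library. Tcf7 encodes TCF1, a factor of naive, memory and stem-like T cells. Barcodes with a Tcf7 UMI held 0.319 times the Entpd1 level of the others in WT, 0.337 in KO, 0.625 in Young and 0.355 in Aged, for example 14.03 against 43.9 CPM in WT. Cd38 with Tcf7 was at 0.461, 0.551, 0.711 and 0.495 times. Nt5e with Tcf7 was higher, 1.58 times (1.51 to 1.66) in WT, 1.36 in KO, 1.43 in Young and 2.18 (2.00 to 2.37) in Aged. Adora2a with Tcf7 was at 0.962, 1.06, 0.956 and 0.815 times, where Aged alone had an interval (0.755 to 0.879) that excluded 1.

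Mki67 marks dividing cells, Itgae encodes the tissue residence integrin CD103 and Cx3cr1 a chemokine receptor of effector cells. Nt5e was lower in Mki67-positive barcodes of every library, at 0.580, 0.806, 0.604 and 0.577 times, while Entpd1 was at 1.04, 0.940, 1.15 and 1.13 times. Bst1 with Mki67 was at 3.86 times in WT, 1.64 in KO, 2.24 in Young and 1.52 in Aged. The part of depth and of other cells in the Mki67 ratios was not tested. Entpd1 with Itgae was at 0.576 times (0.521 to 0.636) in WT and 0.587 (0.524 to 0.657) in KO. In Young it was at 1.59 (1.45 to 1.74) and in Aged at 1.40 (1.23 to 1.59), and kit and host differ between the pairs. Bst1 with Itgae was at 7.76 times in Young, 3.07 in Aged, 1.34 in WT and 0.842 in KO. CD8 barcodes of Young with 2 dendritic cell markers held Entpd1 at 76.6 CPM. The part of other cells in the Itgae ratios was not tested. Itgae was found in 26.8% of WT and 27.8% of KO barcodes but in 8.02% of Young and 2.33% of Aged. Adora2a was lower with Itgae in all 4 libraries, at 0.697, 0.776, 0.577 and 0.715 times. With Cx3cr1, Entpd1 was at 1.13, 1.35, 1.33 and 1.25 times and Nt5e at 0.849, 0.832, 0.828 and 0.777. Foxp3-positive barcodes were few. The 79 of WT and 123 of KO held more Adora2a, 1.95 times (1.40 to 2.66) and 1.56 times (1.21 to 1.98), and more Nt5e, 1.74 and 1.53 times. In the 31 of Young and 21 of Aged, Adora2a was at 1.71 (0.995 to 2.75) and 1.16 (0.672 to 1.85) times. Nt5e was at 1.14 (0.589 to 2.00) and 0.346 (0.0713 to 1.01) times there, so these intervals of Young and Aged all included 1.

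Cd38 was found more often in barcodes that also held Entpd1. At 2000 UMIs per barcode, Cd38 was in 10.7% (8.28 to 13.6) of Entpd1-positive and 5.07% (4.61 to 5.57) of Entpd1-negative WT barcodes. The shares were 5.42% (3.47 to 8.03) and 3.06% (2.69 to 3.47) in KO, 6.44% (4.77 to 8.47) and 4.49% (4.06 to 4.95) in Young, and 8.22% (6.57 to 10.1) and 5.43% (4.91 to 5.98) in Aged. The intervals were apart in WT and Aged, met at 3.47% in KO and overlapped in Young. Nt5e was less frequent with Entpd1 than without, 11.1% against 16.5% in WT, 11.1% against 14.3% in KO, 6.03% against 9.005% in Young and 5.14% against 7.50% in Aged, with overlapping intervals in KO. Both enzymes of the route from ATP to adenosine were seen in few barcodes at this depth, 61 in WT, 47 in KO, 44 in Young and 50 in Aged. Adora2a was in 6.19% of Entpd1-positive and 4.74% of Entpd1-negative barcodes in WT, and in 3.54% and 4.57% in KO, 8.49% and 7.99% in Young and 10.6% and 10.2% in Aged, with overlapping intervals in each.

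T cells that carry the same V beta segment (Trbv) share part of their receptor, and expanded clones gather in 1 segment. Barcodes were assigned to the Trbv gene with most UMIs, and 12 segments had at least 150 barcodes in both Young and Aged; the barcodes of a segment come from the same pooled library and are not replicates. Entpd1 was higher in Aged in 10 of the 12, with separate intervals in 7, and Adora2a in 12 of 12, with separate intervals in 4. Cd38 was higher in Aged in 10 of 12 (3 with separate intervals), and Nt5e was lower in 9 (5 separate) and higher in 3 (1 separate). Among segments Entpd1 ranged from 22.5 CPM (Trbv2) to 63.2 (Trbv19) in Young and from 30.7 (Trbv2) to 95.03 (Trbv15) in Aged. Trbv12-1, the largest segment of Aged with 2021 barcodes, held 34.7 CPM (30.4 to 39.5) of Entpd1 in Young and 89.4 (85.3 to 93.6) in Aged, and 32.1% and 67.7% of its barcodes held Pdcd1. The share of barcodes with Pdcd1 was higher in Aged in 10 of the 12 segments. Without barcodes of Trbv12-1 or with a Gzmd, Gzme or Gzmf UMI, the Aged to Young ratio of Entpd1 was 1.44. In WT and KO only 4 segments each reached 150 barcodes, 10.6% and 10.4% of the barcodes, and 2 were shared; Cd38 was lower in KO in both, 33.3 against 19.97 CPM for Trbv12-2 and 28.2 against 14.9 for Trbv12-1.

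**Figure D5:**
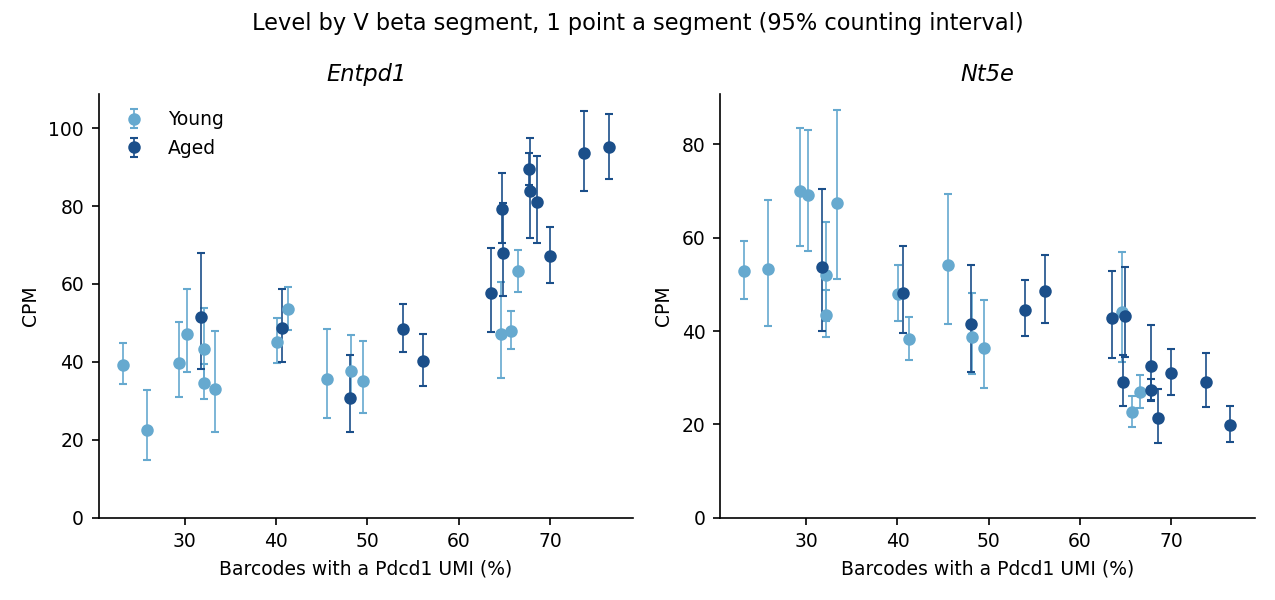
Level in CPM (vertical axis) against the percentage of barcodes with a Pdcd1 UMI (horizontal axis), 1 point per V beta segment of at least 150 barcodes, with 95% counting intervals, for Young and Aged. Trbv15 of Aged, with Pdcd1 in 76.5% of its barcodes, lies highest for Entpd1, at 95.03 CPM, and lowest for Nt5e, at 19.8 CPM. Not all segments with many Pdcd1-positive barcodes lie this way. Trbv31 of Young (64.6%) lies at 47.1 CPM for Entpd1 and 44.0 for Nt5e, and Trbv19 of Aged (63.5%) at 57.7 and 42.8.

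Of the other genes around the pathway none passed 1.5 times between WT and KO. Of 14 genes of extracellular ATP and its enzymes 6 were measured, of 14 adenosine receptors and uptake genes 5, of 17 cyclic AMP genes 14 and of 19 NAD genes 9, and 0 of these passed 1.5 times in either direction. Of all measured genes 0.607% were that much higher and 3.09% lower, so few or none would be counted in lists of this size, and the 0 says nothing particular of them. The median log2 ratios of the lists were -0.04, -0.16, 0.03 and 0.03. The highest ratio of the first list was that of P2ry10, a lysophosphatidylserine receptor of lymphocytes (278 CPM in KO), at 1.18. Those of the other lists were Dpp4 (CD26) at 1.11, the cyclic AMP responsive factor Creb1 at 1.39 and Parp8 at 1.39. The lowest were the ATP-gated channel P2rx4 at 0.802, the nucleoside transporter Slc29a1 at 0.787, the protein kinase A subunit Prkaca at 0.893 and Parp1 at 0.913. Among the adenosine receptors besides Adora2a, Adora2b was at 0.8005 CPM in WT and 0.976 in KO, Adora3 at 4.86 and 3.58, and Adora1 had 1 UMI in WT and 0 in KO.

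Between Young and Aged 2 of 6 measured genes of the first list passed 1.5 times, where 2.62% of all measured genes were higher and 3.83% lower by that much. Over the 4 lists the counts were close to these shares and are given as values only. Enpp1, an enzyme that cuts ATP to AMP and pyrophosphate, was at 8.11 CPM in Young and 13.4 in Aged (1.65 times, 1.48 to 1.85), and the nucleotide sugar receptor P2ry14 at 13.7 and 8.505 (0.619 times, 0.555 to 0.690). In the cyclic AMP list 1 of 14 measured genes passed, the phosphodiesterase Pde4b, at 124 CPM in Young and 82.4 in Aged (0.665 times, 0.642 to 0.689), and the highest was the adenylate cyclase Adcy7 at 1.29. None of 7 adenosine uptake genes and 9 NAD genes passed; their extremes were the AMP deaminase Ampd2 at 1.35 and Slc29a1 at 1.01, and Nmrk1, which makes NAD from its riboside, at 1.15 and Parp8 at 0.748. The list medians were -0.18, 0.15, -0.03 and 0.11 on the log2 scale. The ATP receptor P2rx7, too low to count as measured, was at 6.41 CPM in Young and 1.66 in Aged (0.258 times, 0.207 to 0.321), and was named after its value was seen.

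The genes whose levels ran most like those of 3 enzymes were sought over the 8 combinations of the 3 splits in each library, 16 points per pair, among 4949 genes. The measure was Pearson's r of log2(CPM + 1), taken from the pair where it was lower; the points share libraries and depth, so r is a description only. For Entpd1 the most alike were the glycolytic enzymes Pgk1 (0.932) and Tpi1 (0.929), then Nsd2 (0.916), the lactate transporter Slc16a3 (0.915) and Lims1 (0.909). For Nt5e they were Tcf7 (0.937), Atp11b (0.924), the antiproliferative gene Btg1 (0.92), Foxp1 (0.919), a factor of T cell quiescence, and Ssh2 (0.914). For Cd38 they were Ikzf3 (0.909), the lymphocyte factor Aiolos, then Bex3 (0.849), Cd8a (0.845), Nipsnap3b (0.839) and Rbl2 (0.834).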

How the data were processed

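The authors deposited UMI count matrices, made with Cell Ranger 6.1.1 (WT, KO) and 7.1.0 (Young, Aged) per the file headers. Seurat 3.2.3, the build mm10 and Cell Ranger 6.0.0 are listed in the submitters' processing notes. The annotation release, the use of intronic reads and the calling of cells were not given in the sources used here. Groups were taken from the labels, with 1 library each, and the pairs were not compared with each other because kit, host and software differ.

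From the deposited counts, a barcode was kept from 1000 UMIs and 500 genes upward if mitochondrial UMIs made up no more than 10%. The UMIs of CD8 barcodes were summed per library and given as counts per 1000000 UMIs (CPM). Levels carry exact Poisson, ratios exact conditional binomial and shares Clopper-Pearson intervals, all for counting error only. A share at 0 is limited by 3 counts. Shares were also read after thinning to 2000 UMIs, leaving out shallower barcodes. Log2 ratios used a pseudocount of 1 CPM. A split called a barcode positive at 1 UMI, and after thinning at 1 UMI of the thinned counts. No cells were clustered and no doublet caller was run. The removal of the 8% of barcodes with most UMIs stood in for it.

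The 6 genes, the lists and the tests were chosen with earlier results of these data known. Text genes were the 6, the highest and lowest measured gene of each list, and the 5 most alike for each of 3 enzymes. For that search genes had at least 20 CPM in 1 library of each pair, and the split genes, V segments, mitochondrial and ribosomal genes and unnamed models were left out. The counting steps were tested on simulated data. Alternatives changed scaling, filters, barcode choice, split threshold and pseudocount. Python 3.11.15, numpy 2.4.6, scipy 1.17.1, pandas 2.3.3 and matplotlib 3.10.9 were used.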

Additional observations from a re-analysis of the deposited data

Results flagged for a closer look

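In 4 cases a ratio within a pair lay on opposite sides of 1 in complementary groups of barcodes, with both counting intervals clear of 1. None of these differences between groups of barcodes was tested, since each group has 1 library. Nt5e, which encodes the adenosine-forming enzyme CD73, was at 1.08 times the WT level in KO barcodes with Havcr2 and 0.896 times in those without, a difference of 0.27 on the log2 scale. With both Pdcd1 and Havcr2 the Nt5e ratio was 1.09, and with neither 0.903, a difference of 0.27. The Cd38 ratio of Aged to Young was 1.52 with both receptors and 0.817 with neither, a log2 difference of 0.89. For Bst1 the Aged to Young ratio was 0.621 (0.428 to 0.894) in barcodes with Ifit1 or Ifit3, from 50 and 82 UMIs, and 1.66 (1.19 to 2.33) in those without, from 107 and 57 UMIs, a log2 difference of -1.42. Barcodes with markers of other cells held 79.9% of the Bst1 UMIs of Young and 39.5% of those of Aged, and their part in this difference was not tested.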

How the results depend on the processing

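No paired analysis was possible because each group has 1 library, and for the same reason no replicate could be left out. Over the alternatives, the KO to WT ratio of Cd38 stayed at 0.560 to 0.630 and that of Entpd1 at 0.756 to 0.895. The Aged to Young ratio stayed at 1.26 to 1.76 for Entpd1, 1.22 to 1.35 for Cd38 and 1.32 to 1.45 for Adora2a. Bst1 of Aged and Young ranged from 0.597 to 2.81 and the KO to WT ratio of Adora2a from 0.952 to 1.09, on both sides of 1. No ratio left its interval when CD3 and CD8 needed 2 UMIs each, with at least 2000 UMIs, or without Foxp3 or Cd4 barcodes. The same held without the shared barcode sequences, an alternative chosen after seeing the data. The cause of the moves that follow was not tested.

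Ratios that left their interval for KO and WT were as follows. Without the 8% of barcodes with most UMIs, Cd38 was at 0.560, Entpd1 at 0.756 and Nt5e at 0.865, and with all filtered barcodes Entpd1 was at 0.895 and Nt5e at 0.993. With barcodes weighted equally Nt5e was at 0.870 and Adora2a at 0.952, and with the 8 combinations of the splits weighted equally Nt5e was at 0.978. Without barcodes with 2 markers of another cell type Nt5e was at 0.883 and Bst1 at 0.368. Without those with 2 tumour or epithelial markers, chosen after seeing the data, they were at 0.897 and 0.387. For Aged and Young, equal weights gave Cd38 1.24. The 8 combinations gave Cd38 1.22, Entpd1 1.26, Nt5e 0.972 and Bst1 0.597. Scaling by the median of ratios gave Entpd1 1.53, Nt5e 0.734 and Adora2a 1.32. Without marked barcodes Entpd1 was at 1.76, Nt5e at 0.722, Adora2a at 1.33 and Bst1 at 2.81, and without the 8% Bst1 was at 2.04. Without Trbv12-1 and Gzmd, Gzme or Gzmf barcodes Entpd1 was at 1.44, Nt5e at 0.835 and Bst1 at 0.693.

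Without the filter on low counts 1330 genes were 1.5 times higher and 3426 lower in KO, in place of 45 and 229, and 1776 higher and 3976 lower in Aged, in place of 208 and 304; this adds genes with few UMIs. The ATP, adenosine, cyclic AMP and NAD lists then had 3, 1, 2 and 2 genes past 1.5 times in KO and 6, 2, 3 and 3 in Aged. A pseudocount of 0.1 CPM moved each of the 8 list medians by under 0.1 on the log2 scale.

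With a split at 2 UMIs, 56 of 72 ratios stayed in their interval. For Pdcd1, Nt5e moved to 0.684 in WT, 0.532 in Young and 0.368 in Aged, and Entpd1 to 2.44 in Aged. For Havcr2 in WT, Cd38 moved to 2.03, Entpd1 to 2.96, Nt5e to 0.520 and Bst1 to 1.42. Entpd1 moved to 2.59 in KO, 2.19 in Young and 2.47 in Aged, Nt5e to 0.456 in Young and 0.372 in Aged, and in Young Adora2a to 0.823 and Bst1 to 7.74. For Ifit1 and Ifit3, Bst1 of KO moved to 1.26.

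Thinned to 2000 UMIs, with the splits read again on the thinned counts, 32 of 72 ratios stayed in their interval and 5 changed direction. These were Bst1 for Pdcd1 in WT (0.765) and KO (0.228) and for the interferon split in KO (0), Cd38 for the interferon split in WT (0.968) and Adora2a for it in Young (1.13). For Pdcd1 the moved ratios in WT were Cd38 1.48, Entpd1 1.87, Nt5e 0.851 and Adora2a 1.41, in KO Entpd1 1.23 and Nt5e 0.915, in Young Nt5e 0.694 and Bst1 1.05, and in Aged Cd38 1.68, Entpd1 1.73, Ada 0.755 and Bst1 1.18. For Havcr2 they were Entpd1 2.26, Ada 2.43 and Bst1 0 in WT, Nt5e 0.835, Adora2a 0.871 and Bst1 1.27 in KO, Entpd1 1.30, Nt5e 0.538 and Bst1 1.27 in Young, and Entpd1 1.81, Nt5e 0.682, Adora2a 1.48 and Ada 0.667 in Aged. For Ifit1 and Ifit3 they were Nt5e 1.09, Adora2a 1.14 and Bst1 1.49 in WT, Ada 0.577 and Bst1 1.03 in Young, and Cd38 0.709, Entpd1 0.857, Nt5e 1.19, Adora2a 1.19 and Bst1 0.141 in Aged. At this depth Ada and Bst1 rest on few UMIs.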
